A study of Mus musculus with 9 samples.

Results

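Hypoxia-inducible factors (HIF) are transcription factors whose alpha subunits are marked for degradation by VHL, the substrate-recognition part of a ubiquitin ligase. Besides metabolic enzymes, they are known to induce genes that slow growth. DDIT4 (REDD1) acts through the TSC complex to hold back the kinase mTOR, MXI1 competes with MYC for their shared partner MAX, and the inhibitors p21 and p27 block cyclin-dependent kinases (CDK). mTOR, switched on by the small GTPase RHEB and, further upstream, by the kinase AKT1, drives protein synthesis and cell growth. Alveolar macrophages, the resident macrophages of the air spaces, maintain themselves by local division. The 10 genes described here are Ddit4, Ndrg1 and Mxi1 (HIF targets), Max, Tsc2, Rheb, Akt1 and Mtor (network and pathway partners), and Cdkn1a and Cdkn1b (CDK inhibitors). They were taken by name, and all 10 were among the 12003 genes measured.

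Poly(A) RNA was sequenced from alveolar macrophages of untreated C57BL/6-background mice aged 8 to 12 weeks. Vhl knockouts were Vhl(flox/flox) with CD11c (cre/+), where CD11c is a gene that dendritic cells express as well as alveolar macrophages. Cre controls were Vhl(+/+) with CD11c (cre/+), and floxed controls were Vhl(flox/flox) with CD11c (+/+). Each genotype had 3 libraries, each from 5 to 7 pooled mice matched by sex and age, with lavage cells selected on anti-CD11c beads and RNA of integrity above 8.

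Libraries held 18201116 to 25861174 reads. Values are normalized reads, which are reads scaled by library size and a normalization factor, with 1 read worth 0.0400 to 0.0565. Vhl itself stood at 2.02 to 2.52 normalized reads in knockout libraries, against 14.9 to 25.3 in the 6 control libraries. All 15 alveolar macrophage markers looked for were measured in all groups, among them Siglecf with a mean of 334 normalized reads in knockouts and 502 in controls. In knockouts 4 of these markers rose and 5 fell against both controls. Of all genes, 19.7% rose and 20.2% fell in that comparison (limma adjusted p under 0.05). Of 16 dendritic cell markers, 15 fell (8 where genes with a mean under 5 were left out, and 5 of the 15 reached the table's floor of 0.962 normalized reads in 3 libraries only through the controls) and 1, Cd83, rose. Their summed level was 256 to 277 normalized reads in knockouts, 353 to 566 in Cre controls and 318 to 496 in floxed controls. None of these 16 was at 0 in any library, and Flt3 averaged 2.02 normalized reads in knockouts and 8.88 in both controls. The part of these marker differences in the results below was not tested. In bulk RNA, fewer cells of a type and less RNA per cell cannot be told apart.

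The core HIF binding letters are ACGTG or GCGTG. They were searched on both strands in the 250 bases before each RefSeq start (GRCm38.p6). A window was available for 9 of the 10 genes, all but Ndrg1. Any start with the letters counted, including ACGTG inside the MYC-type E-box CACGTG. Of 32851 such windows in the genome, 38.6% held at least 1 match. The letters stood in 5 of 7 windows of the genes that rose, without Ndrg1, and in 4 of 6 windows of those that did not pass the test. The next lines show windows with a match from 4 genes that rose, shown because they carry the letters, with matches in capitals. They run 5′ to 3′ on the gene's strand and leave out annotated exon bases.
Ddit4 (chr10:59951835-59952020, minus strand): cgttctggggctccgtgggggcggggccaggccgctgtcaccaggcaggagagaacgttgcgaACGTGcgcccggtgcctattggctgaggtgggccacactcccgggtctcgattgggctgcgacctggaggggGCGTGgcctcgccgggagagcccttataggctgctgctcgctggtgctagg
Mxi1 (chr19:53329163-53329412, plus strand, the second of 3 starts): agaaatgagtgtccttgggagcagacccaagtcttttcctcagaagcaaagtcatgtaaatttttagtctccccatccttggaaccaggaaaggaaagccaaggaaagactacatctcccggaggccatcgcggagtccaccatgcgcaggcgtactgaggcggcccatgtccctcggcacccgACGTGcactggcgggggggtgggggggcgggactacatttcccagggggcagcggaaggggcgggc
Cdkn1a (chr17:29093519-29093768, plus strand, the second of 2 starts): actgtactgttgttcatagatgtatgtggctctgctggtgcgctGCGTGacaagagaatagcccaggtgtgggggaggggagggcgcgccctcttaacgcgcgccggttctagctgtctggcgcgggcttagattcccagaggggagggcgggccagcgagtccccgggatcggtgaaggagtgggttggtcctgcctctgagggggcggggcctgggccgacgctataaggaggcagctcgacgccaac
Cdkn1b (chr6:134920151-134920400, plus strand): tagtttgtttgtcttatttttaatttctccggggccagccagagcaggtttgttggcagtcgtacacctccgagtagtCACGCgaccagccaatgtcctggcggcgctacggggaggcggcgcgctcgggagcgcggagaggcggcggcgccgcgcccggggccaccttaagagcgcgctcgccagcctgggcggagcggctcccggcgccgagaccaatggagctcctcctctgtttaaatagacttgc
Ddit4 held 1 ACGTG and 1 GCGTG, beginning 187 and 115 bases before its start, and the Cdkn1b match reads GCGTG on the opposite strand. A match describes letters, not binding.

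In Vhl knockout macrophages, the 3 HIF targets and both CDK inhibitors rose, while Max, Tsc2, Rheb, Akt1 and Mtor were not called. Against both controls 5 of the 10 were called higher and 0 lower at a limma adjusted p under 0.05, where 39.8% of all genes were called, 19.7% higher and 20.2% lower. Against Cre controls the same 5 were higher and 0 lower, where 34.0% of all genes were called, 16.3% higher and 17.7% lower. Against floxed controls the same 5 were higher and 0 lower, where 34.3% of all genes were called, 17.5% higher and 16.8% lower. Scaled by library totals alone, 1925 genes were higher and 2838 lower against both controls, in place of 2361 and 2420. Against floxed controls this scaling gave 1635 genes higher and 2540 lower, in place of 2099 and 2013. In these 5 genes every knockout library lay above all 6 control libraries, as in 19.3% of all genes, and 0 of the 10 lay below them all, as in 18.5% (37.7% in either direction). The median log2 fold change of the 10 genes against both controls was 0.33, and that of all genes was 0.00. Between Cre and floxed controls 0 of the 10 genes were called by limma, edgeR or DESeq2, and 0 had an unadjusted p under 0.05 in limma. Of all genes, limma called 0.167% there, 0.0667% higher and 0.1% lower in Cre controls, and 961 had an unadjusted p under 0.05.

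**Figure D1:**
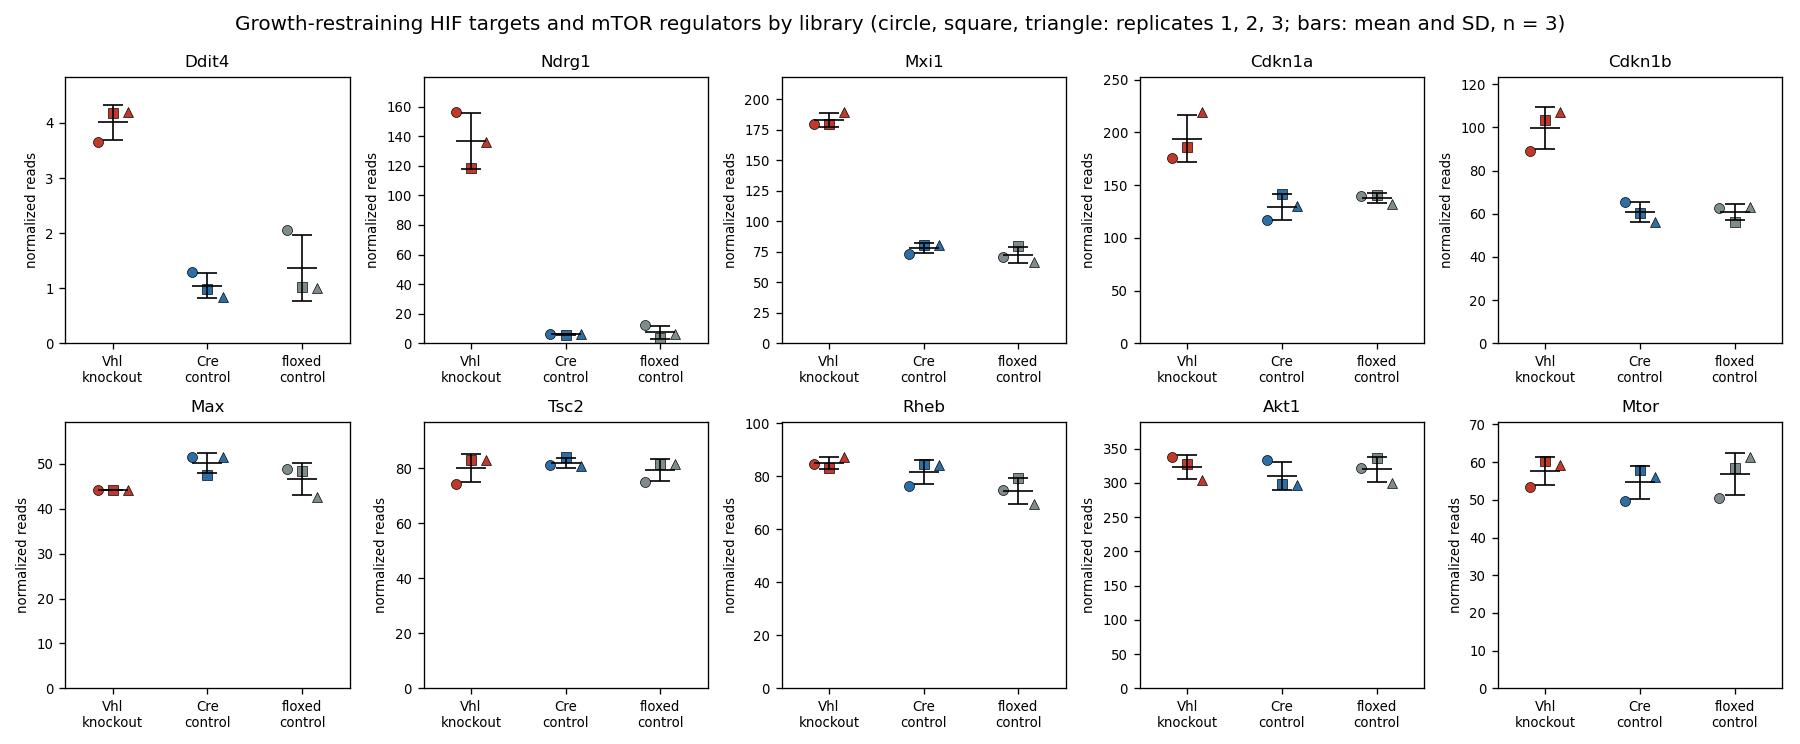
Normalized reads (y axis, from 0) of the 10 genes in each library, with Vhl knockouts left of Cre and floxed controls; symbols are single pools and bars the mean and SD (n = 3). In the upper row all knockout points lie above all control points, and in the lower row the groups overlap or lie close together.

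Ndrg1 (chromosome 15, 66929318 to 66969640, GRCm38) encodes a hypoxia- and stress-induced protein known as a brake on tumour growth and spread. It stood at 156, 118 and 136 normalized reads in knockouts, against 6.07, 5.91 and 6.22 in Cre controls and 12.4, 3.74 and 6.44 in floxed controls. The lowest knockout library lay far above the highest control, floxed control 1. The mean was 20.1 times the mean of both controls, at 137 ± 19.0 and 6.80 ± 2.91 normalized reads (SD, n = 3 and n = 6). On the log2 scale Ndrg1 rose by 4.21 (SE 0.25, limma adjusted p = 1.03e-06). Without floxed control 1 the rise was 4.40.

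Ddit4 (chromosome 10, 59949669 to 59951834) encodes REDD1, which releases the TSC complex and so shuts down mTOR complex 1 in hypoxia and other stress. It was the least abundant of the 10 transcripts per kilobase of exon in every group. Its values were 3.65, 4.19 and 4.20 normalized reads in knockouts, against 1.30, 0.994 and 0.848 in Cre controls and 2.07, 1.02 and 1.01 in floxed controls. These rest on 82 to 105 reads in each knockout library and 15 to 38 reads in each control library. All knockout libraries lay above all controls, and floxed control 1 was again the highest control. Mean Ddit4 was 3.32 times the control mean, and Ddit4 rose by 1.20 on the log2(value + 1) scale (SE 0.16, limma adjusted p = 0.000285). The rise was 1.59 with 0.25 added to each value in place of 1, 0.62 with 4 added, and 1.74 and 1.75 by edgeR and DESeq2 on whole reads, called in each.

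Mxi1 (chromosome 19, 53310518 to 53375810) encodes a MAX-binding repressor that opposes MYC at E-boxes. It stood at 180, 179 and 189 normalized reads in knockouts, against 73.3, 80.6 and 80.3 in Cre controls and 70.6, 79.8 and 66.9 in floxed controls. The knockout libraries lay close together and far from the controls. Mxi1 rose by 1.27 on the log2 scale (SE 0.06, limma adjusted p = 2.70e-07), with a 95% interval of 1.13 to 1.41. The measured gene Gm10197 lies within Mxi1 on the other strand, and the strand setting of the counting is unknown, so reads they share cannot be told apart. Gm10197 had 5.12 to 6.31 normalized reads in knockouts and 2.41 to 3.53 in both controls, far below Mxi1 in each library.

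Cdkn1a (chromosome 17, 29090976 to 29100727) encodes p21, which inhibits CDKs and is a classic target of p53. Its level was 176, 187 and 219 normalized reads in knockouts, against 117, 142 and 130 in Cre controls and 140, 141 and 132 in floxed controls. The groups did not overlap, although knockout 1 lay nearer to the highest control, Cre control 2, than to knockout 3. Cdkn1a rose by 0.53 on the log2 scale (SE 0.08, limma adjusted p = 0.000535), with a 95% interval of 0.35 to 0.71.

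Cdkn1b (chromosome 6, 134920401 to 134925513) encodes p27, the CDK inhibitor that holds resting cells out of the cycle. It stood at 88.8, 103 and 107 normalized reads in knockouts, against 65.4, 60.4 and 56.4 in Cre controls and 62.5, 56.4 and 63.1 in floxed controls. Every knockout library was well above every control. Cdkn1b rose by 0.71 on the log2 scale (SE 0.07, limma adjusted p = 5.60e-05). The rise was 0.70 against Cre controls and 0.71 against floxed controls, which share the floxed alleles with the knockouts.

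The MYC partner Max (chromosome 12, 76937269 to 76962201) is the dimer partner that both MYC and MXI1 need for DNA binding. Max stood at 44.2, 44.1 and 44.2 normalized reads in knockouts, against 51.5, 47.5 and 51.4 in Cre controls and 48.8, 48.4 and 42.6 in floxed controls. The knockouts were below all controls except floxed control 3. The log2 fold change was -0.13, with a 95% interval of -0.26 to 0.01 (limma adjusted p = 0.120). Max was called lower without floxed control 3 (log2 fold change -0.16, limma adjusted p = 0.0310) and with library totals in place of the deposited scaling (-0.17, limma adjusted p = 0.0206). Over the alternatives to this comparison its adjusted p ran from 0.0206 to 0.231. Against Cre controls the log2 fold change of Max was -0.18, with a 95% interval of -0.33 to -0.03 (limma adjusted p = 0.0686), and it was called lower in 3 alternatives, with library totals (adjusted p = 0.0217), without floxed control 3 (adjusted p = 0.0309) and with only these 2 genotypes (adjusted p = 0.0433). Against floxed controls it was -0.07 (limma adjusted p = 0.448), and between the controls 0.11 (limma adjusted p = 0.673).

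Ratios within a library do not depend on its scaling. Per kilobase of exon, Mxi1 over Max was 2.14, 2.14 and 2.26 in knockouts, against 0.751, 0.895 and 0.823 in Cre controls and 0.764, 0.869 and 0.828 in floxed controls. The ratio was above 1 in each knockout library and below 1 in each control. Where it crosses 1 depends on the annotated exon lengths of 6823 and 3598 bases, which may not be those of the expressed transcripts. The difference between genotypes does not depend on them if the same transcripts are expressed in each, which was not tested. Myc, which encodes the activator that MXI1 opposes, rose as well, to 83.1, 62.8 and 51.1 normalized reads in knockouts, against 34.1, 48.1 and 28.0 in Cre controls and 34.4, 43.5 and 35.5 in floxed controls. Myc rose by 0.79 on the log2 scale (SE 0.18, limma adjusted p = 0.00603), with each knockout library above all 6 controls. Mxi1 over Myc per kilobase overlapped between groups, at 0.860 to 1.48 in knockouts, 0.668 to 1.14 in Cre controls and 0.730 to 0.817 in floxed controls.

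**Figure D2:**
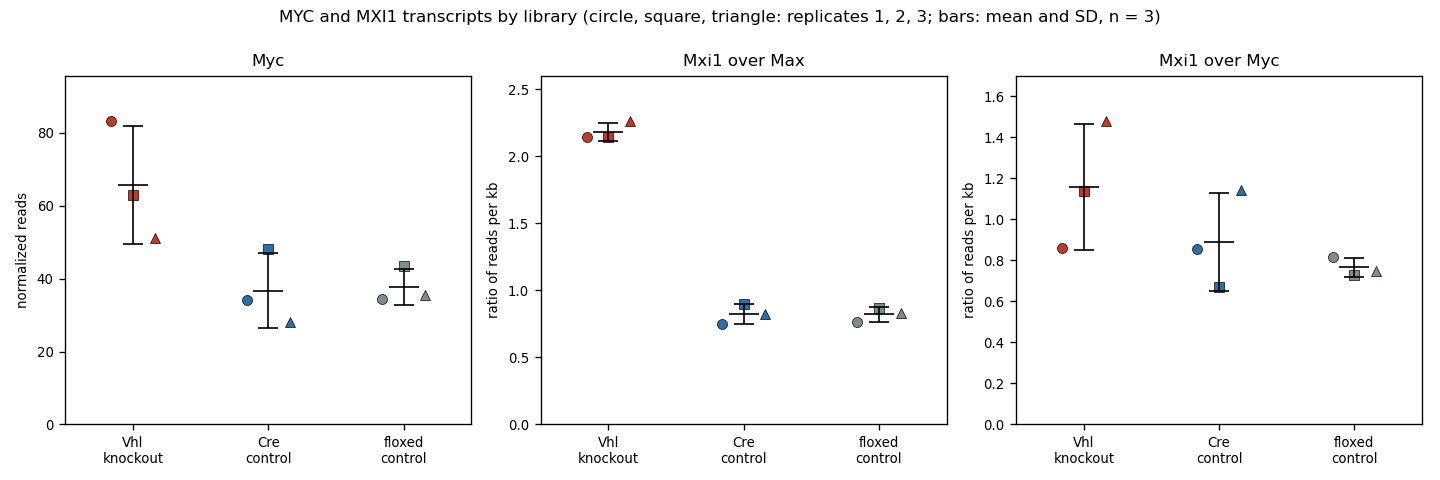
Normalized reads of Myc (left) and the ratios per kilobase of Mxi1 to Max (middle) and Mxi1 to Myc (right) in each library; symbols are single pools and bars the mean and SD (n = 3). Mxi1 over Max is 2.14 to 2.26 in knockouts and under 1 in all controls, while Mxi1 over Myc overlaps between the groups.

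Tsc2 (chromosome 17, 24595816 to 24632630) encodes tuberin, the part of the TSC complex that inactivates RHEB. It stood at 74.2, 83.2 and 83.1 normalized reads in knockouts, against 81.2, 84.2 and 80.8 in Cre controls and 75.0, 81.6 and 81.7 in floxed controls. The groups overlapped. For Tsc2 the log2 fold change was -0.01, with a 95% interval of -0.14 to 0.11 (limma adjusted p = 0.894). Tsc2 overlaps Pkd1 on the other strand, and without a stated strand setting their shared reads cannot be told apart. Pkd1 had 105, 118 and 120 normalized reads in knockouts, against 79.5, 85.2 and 89.9 in Cre controls and 93.2, 103 and 105 in floxed controls (log2 fold change 0.30, limma adjusted p = 0.00479). Its log2 fold change was 0.42 against Cre controls (limma adjusted p = 0.00205). Against floxed controls it was 0.18 and not called (limma adjusted p = 0.0914).

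Rheb (chromosome 5, 24802823 to 24842624) encodes the GTPase that activates mTOR complex 1. It stood at 84.6, 83.0 and 87.3 normalized reads in knockouts, against 76.5, 84.5 and 84.2 in Cre controls and 74.8, 79.3 and 69.5 in floxed controls. Knockouts overlapped the Cre controls and lay above the 3 floxed controls. For Rheb the log2 fold change against both controls was 0.12, with a 95% interval of -0.01 to 0.25 (limma adjusted p = 0.118). Against floxed controls it was 0.19 (limma adjusted p = 0.0510), just short of the threshold. That difference was called by edgeR (adjusted p = 0.0466) and DESeq2 (adjusted p = 0.0411), and by limma without Cre control 1 (adjusted p = 0.0424) or floxed control 2 (adjusted p = 0.0347). Over its alternatives that adjusted p ran from 0.0347 to 0.147. Against Cre controls the log2 fold change was 0.06 (limma adjusted p = 0.550), and the difference between the controls, which tests whether the 2 effects differ, was 0.13 (limma adjusted p = 0.630).

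Akt1 (chromosome 12, 112653821 to 112674884), the kinase that inhibits TSC2, was the most abundant of the 10 per kilobase. It stood at 338, 327 and 304 normalized reads in knockouts, against 334, 299 and 298 in Cre controls and 322, 337 and 300 in floxed controls. The groups overlapped, and the log2 fold change was 0.04, with a 95% interval of -0.10 to 0.18 (limma adjusted p = 0.651). Mtor (chromosome 4, 148448611 to 148557683), the kinase itself, stood at 53.4, 60.2 and 59.1 normalized reads in knockouts, against 49.8, 58.0 and 56.1 in Cre controls and 50.6, 58.4 and 61.4 in floxed controls. Mtor overlapped between the groups too, with a log2 fold change of 0.05 and a 95% interval of -0.12 to 0.22 (limma adjusted p = 0.653). The intervals of Tsc2, Rheb, Akt1 and Mtor all ended below the 0.53 measured for Cdkn1a, and smaller changes of these 4 genes lie within them.

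**Figure D3:**
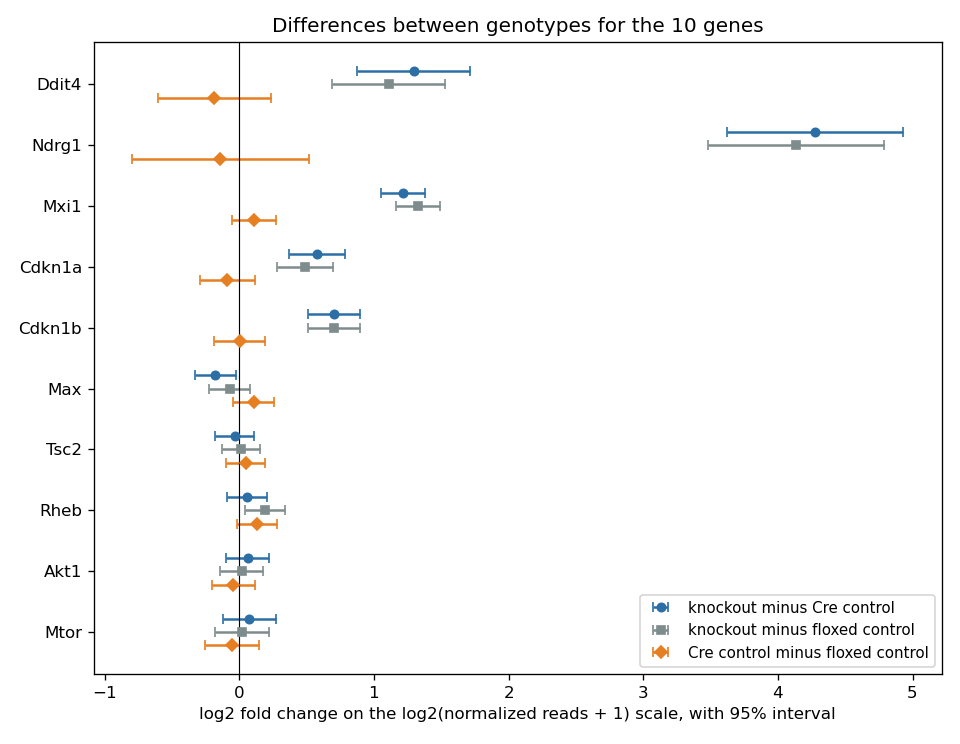
Log2 fold changes on the log2(normalized reads + 1) scale with 95% intervals (limma, 9 libraries) for each gene: knockout minus Cre control, knockout minus floxed control, and Cre control minus floxed control. The top 5 genes lie right of 0 in both knockout contrasts, with Ndrg1 at 4.28 and 4.14, and the contrast between the controls includes 0 for each gene.

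The order of the 10 transcripts by level changed between genotypes. Levels per kilobase, and so ranks and ratios between genes, depend on annotated exon lengths. These may not be the lengths of the expressed transcripts. Per kilobase of exon, knockout libraries ran from Akt1 (78.9 ± 4.16 normalized reads per kilobase) through Cdkn1a (54.6 ± 6.35), Mxi1 (26.8 ± 0.850), Cdkn1b (21.9 ± 2.12), Ndrg1 (20.7 ± 2.88), Max (12.3 ± 0.0124), Rheb (11.0 ± 0.283), Tsc2 (8.33 ± 0.535) and Mtor (5.69 ± 0.363) to Ddit4 (2.29 ± 0.180; SD, n = 3). Of these neighbours, Cdkn1b and Ndrg1 lay within 1 SD of each other. In both controls together Akt1 (76.8 ± 4.47) and Cdkn1a (37.6 ± 2.67) again came first, then Max (13.4 ± 0.912), Cdkn1b (13.3 ± 0.813), Mxi1 (11.0 ± 0.857), Rheb (10.1 ± 0.748), Tsc2 (8.39 ± 0.319), Mtor (5.51 ± 0.454), Ndrg1 (1.03 ± 0.442) and Ddit4 (0.687 ± 0.254; SD, n = 6). Neighbours whose spreads overlapped there were Max and Cdkn1b, Mxi1 and Rheb, and Ndrg1 and Ddit4. Ndrg1 ranked above Max in knockouts and below Mtor in both controls. Cdkn1a stood above Cdkn1b per kilobase in each library, by 2.32 to 2.62 times in knockouts, 2.29 to 3.01 times in Cre controls and 2.68 to 3.21 times in floxed controls.

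Over the 9 libraries, the genes whose log2 levels ran closest to the HIF targets were as follows, as a description over points that fall into 3 genotypes. Ddit4 was nearest to Lbh (r = 0.991), at 28.7 to 33.5 normalized reads in knockouts and 8.76 to 14.2 in controls, and to Zyx (r = 0.990). Ndrg1 was nearest to Kdm5b (r = 0.995), a histone demethylase gene, at 28.0 to 29.3 in knockouts and 9.88 to 14.4 in controls, and to Narf (r = 0.994). Mxi1 was nearest to the pyruvate kinase gene Pkm (r = 0.998), at 2440 to 2495 normalized reads in knockouts and 806 to 965 in controls, and to Tmem43 (r = 0.996). Lbh, Zyx, Kdm5b and Narf, like Ddit4 and Ndrg1, had their highest control value in floxed control 1.

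Other genes of the pathways around these 10 were counted from lists, each set beside all genes (19.7% higher, 20.2% lower, median log2 fold change 0.00). Of 9 other mTOR complex subunits, 1 rose, Prr5l of mTOR complex 2, at 121 ± 4.40 normalized reads in knockouts, 69.9 ± 6.89 in Cre controls and 73.0 ± 6.00 in floxed controls (log2 fold change 0.76, limma adjusted p = 2.67e-05). Counts were 2 higher without Cre control 2, without floxed control 3 and by DESeq2, and 1 lower without knockout 2. The mTOR inhibitor gene Deptor was not called, at 104 ± 7.96 in knockouts, 92.3 ± 5.41 in Cre controls and 93.1 ± 5.21 in floxed controls. In the TSC, Rheb and Rag nutrient branch, 4 of 32 rose and 4 fell (median log2 fold change -0.03). The GATOR subunit genes Seh1l and Wdr59 rose by 0.35 and 0.47 on the log2 scale. Another GATOR subunit gene, Sec13, and the GTPase gene Rragc fell by 0.38 and 0.26. Rragc was not called against floxed controls (limma adjusted p = 0.0882). Without knockout 1 there were 2 higher, without knockout 3 there were 2 lower, and 7 were lower both without Cre control 1 and with library totals.

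In the PI3K-AKT branch 8 of 19 rose and 3 fell (median log2 fold change 0.23). The PI3K subunit genes Pik3cg, Pik3r1 and Pik3cd rose by 0.54, 0.63 and 0.34 on the log2 scale. Pik3cg had 217 ± 9.69 normalized reads in knockouts, 147 ± 9.91 in Cre controls and 150 ± 3.17 in floxed controls. Among 17 mTORC1 outputs 5 rose and 2 fell (4 fell without floxed control 1). Eif4ebp1, the translation repressor that mTOR inactivates, had 81.5 ± 1.03 normalized reads in knockouts, 37.1 ± 2.95 in Cre controls and 38.3 ± 1.88 in floxed controls (log2 fold change 1.09, limma adjusted p = 5.82e-07). Tfe3 and Tfeb, lysosome regulators that mTOR holds in the cytoplasm, fell by 0.45 and 0.42. Of 10 AMPK and energy-stress genes 3 rose and 0 fell, led by Txnip at 1581 ± 131 normalized reads in knockouts, 923 ± 145 in Cre controls and 878 ± 89.6 in floxed controls. Kinase activity and phosphorylation were not measured.

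Among the other genes of the MYC, MAX and MXD network, 2 of 9 rose and 2 fell, with Myc and Mxd4 higher and Mxd3 and Mycl lower. Mycl reached the floor only through the controls. Without knockout 1 or without knockout 3 only 1 was higher, and 1 and 0 were lower. Against Cre controls 1 of the 9 was higher and 2 were lower. Mxd4 (limma adjusted p = 0.113) and Mxd3 (limma adjusted p = 0.0614) were not called against Cre controls. Knockout libraries of Mxd4 and Mxd3 overlapped the controls. Mxd1, another MYC antagonist, was not called, at 95.9 ± 22.5 normalized reads in knockouts, 58.5 ± 22.4 in Cre controls and 88.3 ± 44.4 in floxed controls. Of 26 nucleolar and nucleotide synthesis genes that MYC is known to activate, 12 fell and 0 rose, with a median log2 fold change of -0.16 (1 rose without floxed control 2 and by DESeq2). Against Cre controls 7 fell and 0 rose, and against floxed controls 11 fell and 1 rose. Dkc1 and Ppat fell by 0.47 and 0.44, and Ncl, at 358 ± 3.39 normalized reads in knockouts, 373 ± 12.1 in Cre controls and 349 ± 17.3 in floxed controls, was not called. Of 6 NDRG relatives and NDRG1 kinases, 2 rose and 1 fell (2 fell without floxed control 1). Ndrg3 rose by 0.28 on the log2 scale and Sgk3 fell by 0.44. Ndrg2, the other called higher, reached the table's floor only through the knockouts, so its call is no support, at 1.74 to 2.60 normalized reads in knockouts, 0.113 to 0.366 in Cre controls and 0.0512 to 0.192 in floxed controls.

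Of 5 measured CDK inhibitors other than Cdkn1a and Cdkn1b, 4 fell and 0 rose, led by Cdkn2c (p18) at 6.97 ± 0.917 normalized reads in knockouts, 10.9 ± 1.76 in Cre controls and 13.7 ± 1.22 in floxed controls (log2 fold change -0.73, limma adjusted p = 0.000669). Cdkn2a and Cdkn2b, among the 4, reached the floor only through the controls. Without knockout 3, 2 of them fell, and 1 fell once genes with a mean under 5 were left out. Among G1 cyclins, CDKs and RB-E2F genes 7 of 16 fell and 2 rose. Against Cre controls 6 fell and 2 rose, and against floxed controls 7 fell and 0 rose. Ccne1 (cyclin E1) stood at 4.25 ± 0.123 normalized reads in knockouts, 8.50 ± 1.18 in Cre controls and 10.9 ± 0.359 in floxed controls, and E2f2 fell by 0.88 on the log2 scale. Against both controls, the count higher was 0 without knockout 2 or without knockout 3. It was 1 without knockout 1, without Cre control 2, with library totals or without the variance trend.

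Of 15 p53 genes and targets other than Cdkn1a, 10 fell and 0 rose (1 rose without floxed control 1), with a median log2 fold change of -0.41. Phlda3, a p53 target, stood at 22.9 ± 2.10 normalized reads in knockouts, 66.6 ± 14.2 in Cre controls and 48.8 ± 9.63 in floxed controls (log2 fold change -1.26, limma adjusted p = 9.50e-05). Zmat3, Aen and Ccng1 fell by 0.55, 0.77 and 0.35. Of 12 FOXO factors and targets other than Cdkn1b, 7 rose and 3 fell. Foxo1 had 51.2 ± 2.33 normalized reads in knockouts, 23.6 ± 2.94 in Cre controls and 23.1 ± 0.797 in floxed controls (log2 fold change 1.11, limma adjusted p = 3.51e-06), Foxo3 rose by 0.75 and Ccng2 by 1.01, and Bcl2l11 fell by 0.71. Among 12 factors of p27 and p21 turnover 5 rose (3 without knockout 2) and 2 fell. The kinase genes Pim1 and Pim3 rose by 0.34 and 0.52, and Pim2, Fbxw7 and Cul4a rose as well. Pim1 rose by 0.52 against Cre controls (limma adjusted p = 0.00204). It was not called against floxed controls (log2 fold change 0.16, limma adjusted p = 0.206). Pim1 libraries overlapped there, at 188 to 211 normalized reads in knockouts and 162 to 197 in floxed controls. The 2 that fell were Cks1b, the SKP2 cofactor for p27 degradation, by 0.61, and Dtl, which targets p21, by 1.21. Of 11 genes that glucocorticoids induce or that encode their receptor, 7 rose, 1 of them (Zbtb16) in the table only through the knockouts. In this list 1 fell (2 fell without floxed control 1). Against Cre controls 8 rose and 1 fell, and against floxed controls 5 rose and 1 fell. Cebpd was up by 1.27 and the receptor gene Nr3c1 by 0.88. Ddit4 is known to be induced by glucocorticoids as well, and whether they had a part in its rise here was not tested.

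**Figure D4:**
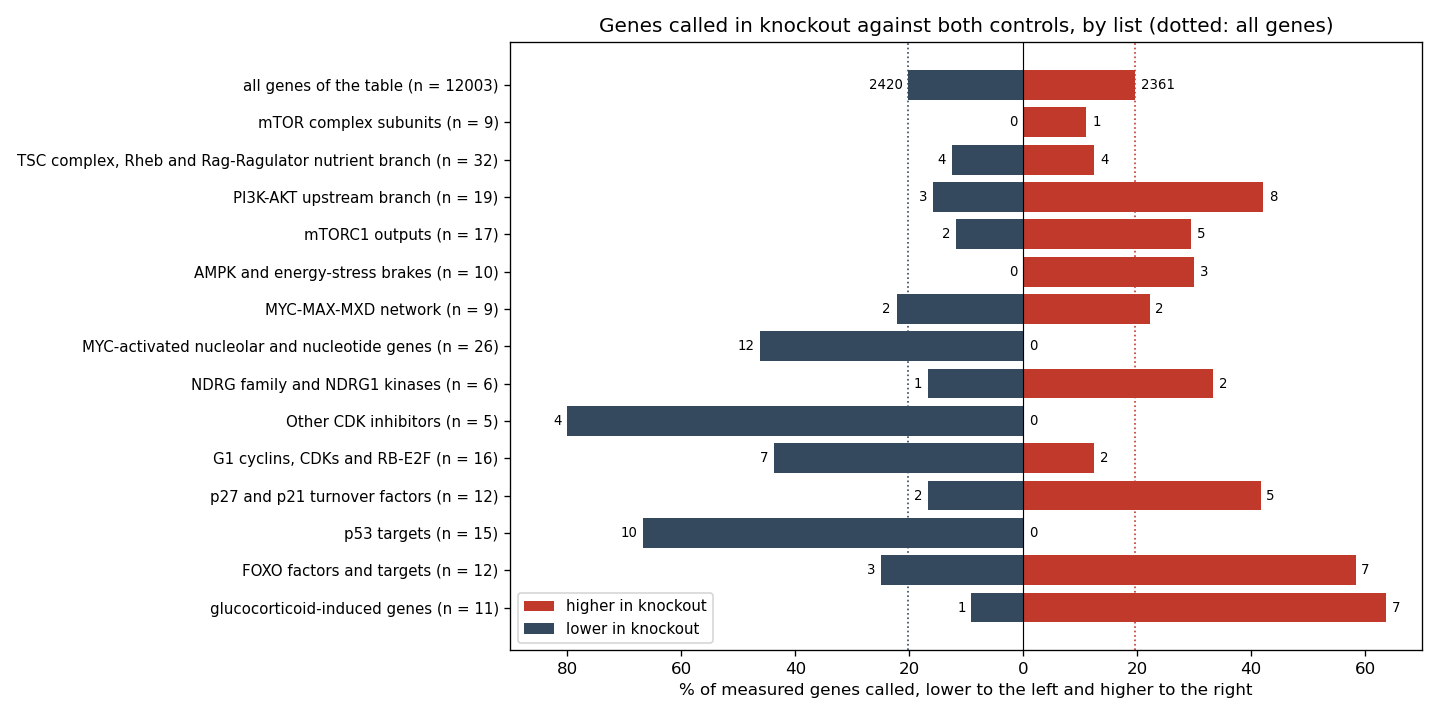
Share of measured genes in each list (% on the x axis) called higher (right) or lower (left) in knockout against both controls by limma; numbers at the bars are gene counts and dotted lines the shares over all genes. For mTOR complex subunits 1 of 9 genes is higher and for the nutrient branch 4 of 32, while 10 of 15 p53 genes lie on the lower side and 7 of 12 FOXO genes on the higher side.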

How the data were processed

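The authors deposited 1 table of signal values for 12003 Ensembl genes in 9 libraries. The submitters' processing notes name CASAVA 1.8.2, cutadapt 1.3, RSEM 1.2.3 and GRCm38, and these do not give the scaling or annotation. All deposited values (100%) were whole reads within 0.01 read times 1 factor per library, without length correction, and each gene reached 0.962 in at least 3 libraries. A count of 0 allows 3 reads, counting error only. Reads per library are given above. Groups came from the genotype labels. Symbols, positions and exon lengths came from GENCODE M21 (11935 identifiers named). Log2(value + 1) was fitted over all genes and libraries with limma 3.58.1 (R 4.3.3, trended empirical Bayes, two-sided, Benjamini-Hochberg adjustment, threshold 0.05, no filter), and the script was tested on simulated data. P-values measure the spread between pools. Alternatives were 2 other pseudocounts, a filter, library totals, no trend, a replicate block, each library left out, only the contrasted genotypes, and edgeR 4.0.16 and DESeq2 1.42.0 on the recovered reads. Named genes are the 10, and from each list up to 4 called genes with the smallest adjusted p and a mean of at least 5, plus the most abundant gene not called, up to 3 called markers per cell type, and the 2 genes with the highest Pearson correlation to each HIF target. Recounting the lists under the alternatives was added after the data had been seen. One gene that this rule names is not reported here. Mycl, Ndrg2, Cdkn2a, Cdkn2b, Zbtb16, Pim2, Fbxw7, Cul4a, Flt3, Siglecf, Cd83 and Ighm were named after their values were seen. The members and lists were chosen with earlier results of these data known.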

Additional observations from a re-analysis of the deposited data

How the results depend on the processing

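Of 706 values of the 10 genes recomputed under the alternatives, 697 kept their direction or stayed uncalled as before, 0 lost a call or reversed a called direction, and 9 gained a call; these 9 were Max lower (5) and Rheb higher against floxed controls (4). The number of the 10 genes called against both controls stayed between 4 and 6, with 4 where Ddit4 was left out for a mean under 5. Genes called in knockout against both controls ranged from 3648 to 4974 with 1 library left out. The replicate block gave 4898 genes against both controls and changed no call of the 10 genes; deviations of same-numbered libraries correlated at -0.09 to 0.52, best with their own number in 8 of 18 comparisons, so the numbers were not taken as pairs. Cre against floxed controls had 20 genes called, 71 with the replicate block, 74 with DESeq2, 11 with the contrasted genotypes alone, and 13 to 31 with 1 library left out. The cause was not tested. The highest of the left-out counts came without Cre control 1 and the lowest without Cre control 3. Library totals shifted the median of all genes to -0.05. Ddit4, with 15 to 105 reads per library, is the member most limited by depth.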

Other observations

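The marker genes of other cell types were counted in the same way, in knockouts against both controls. Of all genes, 19.7% were called higher there and 20.2% lower. Of 12 monocyte markers 4 rose and 3 fell, the same counts as against Cre controls, while 2 rose and 4 fell against floxed controls. Ace had 157 to 177 normalized reads in knockouts, 64.3 to 73.6 in Cre controls and 67.6 to 74.7 in floxed controls. Cd300e was lower, with a mean of 4.84 in knockouts, 14.7 in Cre controls and 13.4 in floxed controls. F13a1, also called higher, was in the table only through the knockouts, at 53.2 ± 10.0 in knockouts, 0.448 ± 0.212 in Cre controls and 0.745 ± 0.344 in floxed controls. Of 10 lung epithelial markers 2 rose and 2 fell, near the shares over all genes. Their summed level was higher in knockouts, at 1069 to 1127 normalized reads, than in Cre controls (591 to 885) and floxed controls (594 to 826). Among these markers Cdh1 was up by 1.18 on the log2 scale. Epcam was lower, at 26.6 ± 2.08 in knockouts, 74.2 ± 29.6 in Cre controls and 68.9 ± 17.9 in floxed controls. Of 8 neutrophil markers 1, Mmp8, was called higher, and the call was lost without knockout 1 or 2, Cre control 2 or 3, or floxed control 2 or 3. Of 2 B cell markers 1, Igkc, was called higher, and its call was lost without any 1 library other than floxed control 1. Against Cre controls 1 B cell marker was higher and 0 lower, and against floxed controls 0 were higher and 1, Ighm, was lower. Of 4 T and NK cell markers 1, Cd2, was called lower, not so without knockout 2. The summed neutrophil level overlapped between genotypes, at 236 to 670 normalized reads in knockouts, 196 to 585 in Cre controls and 328 to 1254 in floxed controls.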
